A study of Mus musculus with 26 samples.

Results

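Chromatin accessibility of 3724 autosomal ATAC-seq peaks was compared at the level of strains and of alleles in Kupffer cells, which are macrophages resident in liver sinusoids. The strain ratio is the log2 ratio of untreated C57BL/6J over untreated BALB/cJ mice. The allele ratio is the log2 ratio of the C57BL/6J over the BALB/cJ allele inside untreated mice of their F1 hybrid, CB6F1/J. Members were the peaks of 200 bp that the table of the inbred strains and the table of the hybrid share, where each peak covers at least 50% of the other, on chromosomes 1 to 19 and with a mean normalised tag count over 16 in both tables. They are 3724 of 76245 matched pairs, of 96381 peaks in the first table and 217456 in the second. The rule uses levels and positions, not ratios.

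The groups compared were C57BL/6J control (n = 4), BALB/cJ control (n = 4) and CB6F1/J control (n = 4), all untreated male mice aged 8 to 12 weeks. CB6F1/J LPS animals (n = 5), taken 2 h after 0.1 mg/kg of lipopolysaccharide (LPS), served as separate animals for the allele ratio. The methods describe overnight fasting for the LPS experiment, in mice with LPS or no injection. The titles of the control libraries do not say whether these mice were fasted. Kupffer cells were sorted from the non-parenchymal cells of digested livers, and transposition tags were counted in a window of 1000 bp around each peak. CB6F1/J mice have a BALB/cJ mother and a C57BL/6J father, so the strain of an allele and its parent of origin cannot be told apart. Replicates are taken as separate mice, and p-values measure only the spread between them. In bulk samples like these, fewer cells of a type and less signal per cell cannot be told apart.

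Depth differed between libraries and between comparisons. The C57BL/6J and BALB/cJ control libraries held 2.77 to 7.41 M autosomal tags in peaks, except BALB/cJ control replicate 4 with 46.4 M. Each allele column of an untreated hybrid animal held 262902.5 to 410569.5 variant tags. All 10 Kupffer cell markers looked for, among them Clec4f, Timd4 and Vsig4, had a peak within 1 kb of their start, with 83.8 to 104 normalised tags per gene in C57BL/6J libraries and 90.7 to 115 in BALB/cJ libraries. Of other cells, 1 of 7 hepatocyte markers, 0 of 4 stellate cell markers and 0 of 6 lymphocyte markers had such a peak. The 3 start peaks of sinusoidal endothelial markers summed to 16.1 to 23.9 normalised tags in C57BL/6J libraries and 33.0 to 91.3 in BALB/cJ libraries, with none at Stab2, Clec4g or Pecam1. For 2 of 4 monocyte markers the sums were 16.2 to 26.0 in C57BL/6J libraries and 8.05 to 13.7 in BALB/cJ libraries, with none at Ly6c2 or Ccr2. The single start peak of the 4 neutrophil markers held 29.6 to 63.8 in C57BL/6J libraries and 58.5 to 89.9 in BALB/cJ libraries. Per gene, as for the Kupffer cell markers, endothelial markers held 2.675 to 3.989 in C57BL/6J libraries and 5.494 to 15.21 in BALB/cJ libraries. On that scale monocyte markers held 4.058 to 6.503 and 2.013 to 3.413, and neutrophil markers 7.392 to 15.96 and 14.63 to 22.48. The part of these other cells in the ratios below was not tested.

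A difference between inbred strains can lie in cis or in trans. A cis difference is written in the DNA next to the element and acts on its own chromosome, whereas a trans difference comes from a diffusible factor, a signal or the surroundings of the cell and acts on both chromosomes. In an F1 hybrid both alleles share 1 nucleus, so a cis difference persists between the alleles and a trans difference does not. The study called a peak cis when it differed between strains and between alleles in the same direction, trans when it differed between strains only, and mixed when it differed between alleles only. In Kupffer cells such elements are known to be bound by lineage factors like PU.1 and MAF-B, by LXR, and by signal-dependent AP-1.

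The sequences of 7 peaks that the results turn on follow, read 5′ to 3′ on the plus strand of mm10 (GRCm38), the RefSeq assembly. Capitals mark in each peak the motifs that the next paragraph names for it, found by matching letters on both strands, and the H2-Ab1 and Mcts2 sequences stop before the annotated 5′ UTR. The peaks near Snx20, Soat1 and Ifit1 stand for elements called between strains and between alleles.
Snx20, chr8:88633518-88633718, intron: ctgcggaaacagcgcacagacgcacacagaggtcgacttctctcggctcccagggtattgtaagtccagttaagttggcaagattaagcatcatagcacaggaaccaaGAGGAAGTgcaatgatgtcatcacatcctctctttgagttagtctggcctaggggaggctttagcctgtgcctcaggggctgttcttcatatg
Soat1, chr1:156450589-156450789, intron: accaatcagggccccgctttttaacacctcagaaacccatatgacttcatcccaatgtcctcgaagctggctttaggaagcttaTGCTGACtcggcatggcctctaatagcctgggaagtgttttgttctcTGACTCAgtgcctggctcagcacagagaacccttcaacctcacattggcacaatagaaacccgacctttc
Ifit1, chr19:34673629-34673829, intron of Slc16a12: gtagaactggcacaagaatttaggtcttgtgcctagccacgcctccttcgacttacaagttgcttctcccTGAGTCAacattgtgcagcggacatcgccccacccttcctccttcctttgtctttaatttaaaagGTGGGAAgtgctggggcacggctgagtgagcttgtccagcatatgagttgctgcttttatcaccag
The peaks near Msr1 and at the H2-Ab1 promoter had a strain call alone.
Msr1, chr8:39651846-39652046, intergenic: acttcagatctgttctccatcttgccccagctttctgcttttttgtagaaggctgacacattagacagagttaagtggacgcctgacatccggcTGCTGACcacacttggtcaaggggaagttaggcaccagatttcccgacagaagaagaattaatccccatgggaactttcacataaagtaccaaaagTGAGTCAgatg
H2-Ab1, chr17:34263110-34263208, promoter: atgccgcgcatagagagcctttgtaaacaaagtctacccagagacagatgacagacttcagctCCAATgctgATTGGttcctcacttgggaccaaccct
The peaks near Mcts2 and Dusp1 had an allele call alone.
Mcts2, chr2:152686890-152687034, promoter: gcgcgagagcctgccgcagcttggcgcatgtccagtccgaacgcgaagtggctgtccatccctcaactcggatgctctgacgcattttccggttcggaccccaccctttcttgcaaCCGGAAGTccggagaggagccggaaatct
Dusp1, chr17:26465109-26465309, intergenic: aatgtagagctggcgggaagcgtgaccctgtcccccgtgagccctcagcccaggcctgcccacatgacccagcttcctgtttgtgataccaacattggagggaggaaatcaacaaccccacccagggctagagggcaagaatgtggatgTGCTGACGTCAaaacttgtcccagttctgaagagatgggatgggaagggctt

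The Snx20 peak holds the ETS core GAGGAAGT of PU.1, found in 9.24% of all members. The AP-1 letters TGANTCA, found in 12.3%, stand in the Soat1, Ifit1 and Msr1 peaks. The Soat1, Msr1 and Dusp1 peaks hold the MAF half-site TGCTGAC (6.44%), which in Dusp1 overlaps the CRE TGACGTCA (1.8%). Ifit1 also holds the RBPJ letters TTCCCAC on the minus strand (4.27%), and Mcts2 the promoter type ETS letters CCGGAAGT (3.46%). In H2-Ab1 the CCAAT letters of the NF-Y box (27.4%) stand once on each strand, and the same letters, left in lower case, are in Soat1 and Dusp1. Such matches describe the reference sequence only, and the positions of the variants between the strains were not used here.

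At most members with a strain call the alleles differed in the same direction, and at fewer of them the allele ratio was called too. Calls needed an absolute log2 ratio over 1 and an adjusted p under 0.05 in edgeR's quasi-likelihood test. Strain ratios were called at 624 of 3724 members (16.8%), 321 higher and 303 lower in C57BL/6J, against 7.36% of the 52386 peaks of the strain table tested (3.18% higher and 4.17% lower). The allele ratio was called at 362 members (9.72%), 195 higher and 167 lower on the C57BL/6J allele, against 9.26% of 4483 peaks tested in the hybrid (4.97% higher and 4.28% lower). Both were called in the same direction at 279 members, of which 141 were higher and 138 lower in C57BL/6J, and 0 were called in opposite directions. The strain ratio alone was called at 345 members (180 higher, 165 lower) and the allele ratio alone at 83 (54 higher, 29 lower). At 3017 members neither was called.

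A ratio that passes in one comparison and not in the other is not shown to differ, so the difference of both ratios was tested in one model. It was called at 141 of 3724 members, which is the 3.79% of all tested, 65 with the strain ratio higher (1.75%) and 76 with it lower (2.04%). At 651 members its unadjusted p was under 0.05. Of the 624 members with a strain call the difference was called at 94, that is at 49 of the 345 with a strain call alone and at 45 of the 279 with both calls. At all 94, which were chosen by their strain ratio, the allele ratio was smaller in size or of opposite sign. It was also called at 32 of the 83 members with an allele call alone and at 15 members with neither call. In simulated counts the test found 22 of 48 true differences of 1 (45.8%) at an adjusted p under 0.05. For ratios of that size it was 75.5% between strains and 78% between alleles. A difference that was not called is therefore not shown to be absent.

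The number of allele calls rested on the animals. Without CB6F1/J replicate 1, 72 allele calls were left, and the members with both calls, the strain call alone and the allele call alone numbered 62, 522 and 10. Without replicate 2 there were 218 allele calls, 177 of them with both calls and 41 alone, and without replicate 4 there were 231, 45 of them alone. Without replicate 3, 41 members had the allele call alone.

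**Figure D1:**
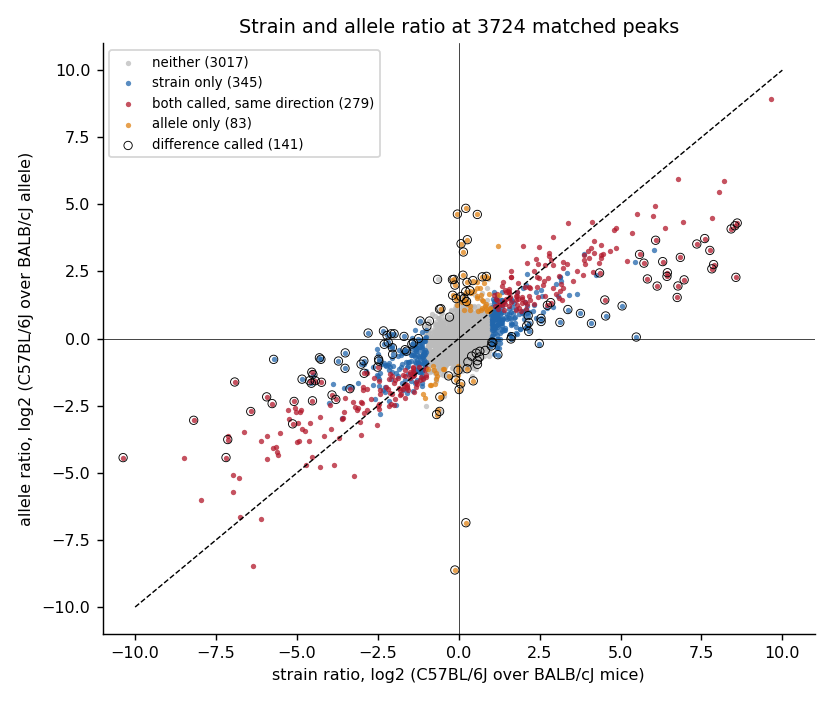
Each point is 1 of 3724 members, with the strain ratio (log2, C57BL/6J over BALB/cJ mice) on the x axis and the allele ratio (log2, C57BL/6J over BALB/cJ allele) on the y axis. Colours give the class of calls, rings the 141 members whose difference was called, and the dashed line equal ratios. Members with both calls lie in the lower left and upper right corners, mostly between the x axis and the dashed line.

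Over all members the strain and allele ratios correlated with Pearson's r = 0.791 and Spearman's rho = 0.59 (n = 3724 peaks). The points share libraries, windows and base composition, so the correlation is a description. It was 0.911 at the 624 members with a strain call and 0.364 at the 3100 without one. It was 0.516 at 1166 promoter members and 0.796 at the 2165 members whose windows overlap no other matched window.

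Among members with a strain call, 593 of 624 (95.0%) had an allele ratio of the same sign, against 2510 of all 3724 members (67.4%). At members with a strain call alone this held for 314 of 345 (91.0%), and 120 of these had an allele ratio over 1 in size in the direction of the strain without passing the test. Only 12 of the 345 reached an adjusted p under 0.05 for the allele ratio. The strain call alone therefore holds members with an allele ratio near 0 and members with a sizeable ratio that did not pass the test. The median SE of the allele ratio was 0.34 with a strain call alone and 0.35 with both calls.

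At members with a strain call the allele ratio was smaller in size or of opposite sign at 523 of 624 (83.8%). These members were chosen by their strain ratio, so the comparison of sizes is a description. Over all members the median size was 0.34 for the strain ratio and 0.35 for the allele ratio, and at members with an allele call alone it was 0.55 and 1.62. The median of allele over strain ratio was 0.63 at the 624 members with a strain call, with quartiles of 0.408 and 0.875. It was 0.791 where both were called and 0.496 where the strain ratio alone was called. Members with a strain ratio over 3 had a median strain ratio of 4.49 and a median allele ratio of 2.84, and those under -3 had -4.61 and -2.95. Between 1 and 2 the medians were 1.28 and 0.90, and between -2 and -1 they were -1.31 and -0.92. The difference was called at 30 of the 86 members over 3 (34.9%) and at 6 of the 185 members between 1 and 2 (3.24%).

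The X chromosome gave a measure of the tags assigned to the wrong allele. Male hybrids carry the BALB/cJ X alone, and the C57BL/6J columns still held 7.14, 7.09, 9.11 and 8.4% of X-linked variant tags in animals 1 to 4. These shares equal log2 ratios of -3.70, -3.71, -3.32 and -3.45 at an allele that is absent. Some autosomal members went beyond that size, so it is no fixed limit, and its part in the size of the allele ratios was not tested.

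**Figure D2:**
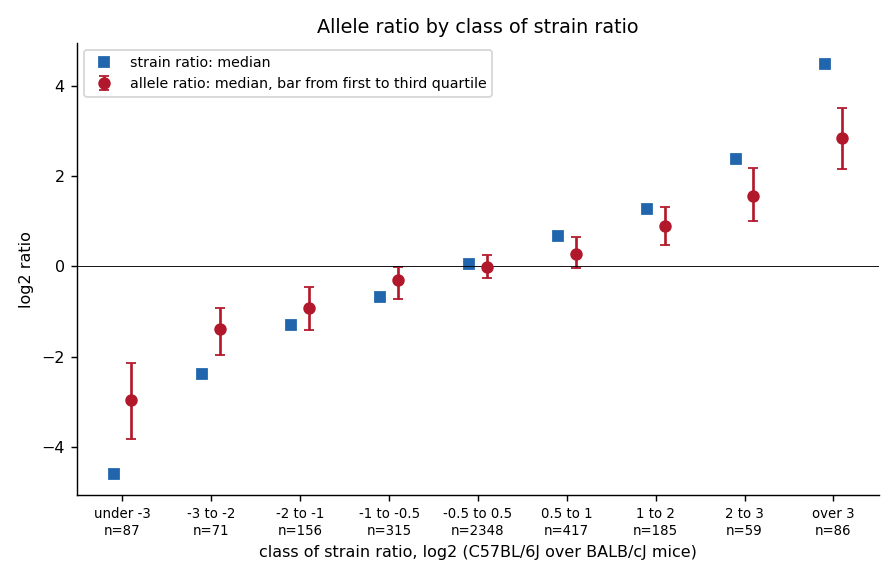
Members are grouped on the x axis by strain ratio, with the number of members under each class. Squares give the median strain ratio and circles the median allele ratio (log2, y axis), with bars from the first to the third quartile of the allele ratio. The allele median keeps the sign of the strain median in each outer class and stays closer to 0, at 2.84 against 4.49 in the highest class.

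The share of strain calls with an allele call followed the number of variant tags. With a mean of 16 to 24 normalised variant tags per column, 76 of 248 members with a strain call (30.6%) also had an allele call. It was 141 of 266 (53.0%) at 24 to 48 tags and 62 of 110 (56.4%) above 48. The median SE of the allele ratio in these classes was 0.38, 0.29 and 0.19, while the median of allele over strain ratio was 0.633, 0.621 and 0.66.

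At the 279 members with both calls, the allele difference ran the same way in each of the 4 animals. The 4 C57BL/6J and 4 BALB/cJ libraries did not overlap at 274 of them, and the allele columns did not overlap at 254. These members were chosen by their calls on the same libraries, so such counts largely follow from the choice and add no support. An intronic peak of Snx20, a sorting nexin that binds the leukocyte adhesion ligand PSGL-1 (chr8:88633518-88633718), was among those with the smallest p. It held 112, 128, 169 and 149 normalised tags in C57BL/6J mice and 14.5, 28.3, 22.8 and 17 in BALB/cJ mice. In animals 1 to 4 the C57BL/6J allele held 111, 122, 115 and 120.0 and the BALB/cJ allele 17.6, 10.5, 12.7 and 9.73. Normalised tags of mice and of alleles stand on separate scales, since the alleles are counted on variant tags only. Neither the strains nor the alleles overlapped. Its strain ratio was 2.79 ± 0.25 (adjusted p = 6.45e-10) and the allele ratio 3.19 ± 0.23 (adjusted p = 0.00178), and their difference was not called (adjusted p = 0.629).

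A peak 21984 bp from the start of Serpina3c, a member of the serine protease inhibitor family (chr12:104175756-104175956), was also higher in C57BL/6J. It held 101, 112, 105 and 70.5 in C57BL/6J mice and 9.23, 9.75, 0 and 3.32 in BALB/cJ mice. The alleles held 87.4, 56, 85.7 and 41.2 (C57BL/6J) and 15, 9.31, 7.4 and 5.84 (BALB/cJ), again without overlap. The ratios were 4.34 ± 0.37 between strains and 2.83 ± 0.26 between alleles, and their difference of 1.49 ± 0.58 was not called.

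Lower in C57BL/6J was an element near Ddhd1, a phospholipase gene, 19264 bp from its start (chr14:45677307-45677507). It held 45.8, 43.3, 45.5 and 27.9 in C57BL/6J mice and 149, 175, 224 and 161 in BALB/cJ mice. The alleles held 17.3, 13.4, 7.14 and 20.1 (C57BL/6J) and 74, 83.8, 64.5 and 92.5 (BALB/cJ). Both sets were apart in every library and animal. They gave a strain ratio of -2.10 ± 0.20 and an allele ratio of -2.45 ± 0.24 (adjusted p = 0.00438). An intronic peak of Mxra7 (chr11:116814619-116814819), a matrix-remodelling associated gene, showed the same direction. Its strain ratio was -2.99 ± 0.35 and the allele ratio -2.40 ± 0.19.

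At 45 members both ratios were called and yet differed from each other, all with the strain ratio larger in size. The largest of those named here lies 63330 bp from the start of Gcnt1, which builds branched O-glycans (chr19:17276075-17276275). It held 147, 167, 161 and 183 in C57BL/6J mice and 1.32, 1.95, 1.34 and 0 in BALB/cJ mice. On the BALB/cJ allele 4.41, 9.31, 7.4 and 10.7 tags were counted, against 179, 111, 128 and 168 on the C57BL/6J allele. Neither strains nor alleles overlapped, and the BALB/cJ allele held some tags in each animal. A strain ratio of 8.53 ± 0.56 thus stood beside an allele ratio of 4.20 ± 0.28, with a difference of 4.42 ± 0.75 (adjusted p = 0.000416). With BALB/cJ mice near 0, the size of the fitted strain ratio rested on replicate 4, the deepest library, without which the strain ratio was 6.58 and the difference 2.38, still called. At this peak 36.0% of the 30-base words in the window occurred elsewhere in the genome.

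A peak in an intron of Rcan2 with Enpp5, a phosphodiesterase family member, as its nearest gene at 51331 bp (chr17:44027371-44027571) was the counterpart in the other direction. C57BL/6J mice held 0, 1.6, 0 and 1.33 and BALB/cJ mice 60.7, 44.9, 47 and 56.6, whereas the C57BL/6J allele held 11.3, 14.6, 4.08 and 4.79 and the BALB/cJ allele 64.3, 78, 30.7 and 48.7. Neither strains nor alleles overlapped. The ratios were -6.43 ± 0.52 and -2.72 ± 0.27, with a difference of -3.73 ± 0.79 (adjusted p = 0.00404).

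**Figure D3:**
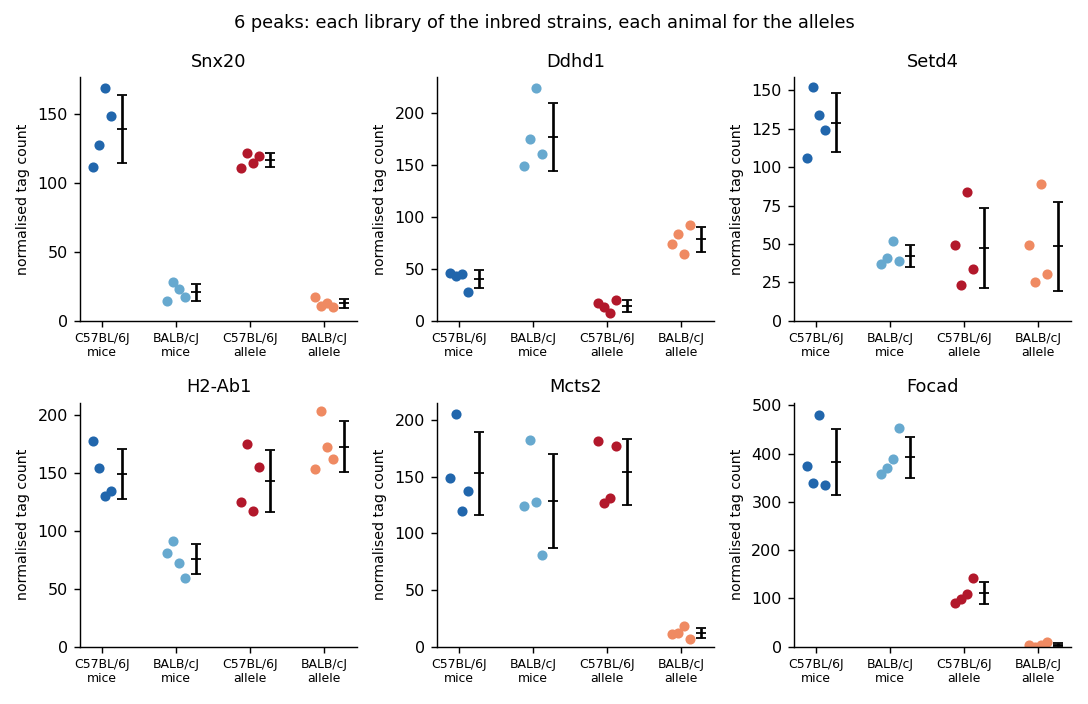
Normalised tag counts (y axes, from 0) at 6 peaks for each C57BL/6J and BALB/cJ mouse and for each allele of the 4 hybrid animals, with mean and SD. At Snx20 and Ddhd1 the alleles differ as the strains do, at Setd4 and H2-Ab1 the strains differ and the alleles overlap, and at Mcts2 and Focad the strains overlap and the BALB/cJ allele lies far below the C57BL/6J allele.

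At some peaks the strains differed by a large factor and the alleles had no call. Of the 345 members with a strain call alone, the difference of ratios was called at 49. A peak near Mtus1, a microtubule-associated gene (chr8:41073883-41074083), lies 19187 bp from its start. It held 79.4, 61, 92.3 and 71.8 in C57BL/6J mice and 0, 4.88, 9.4 and 4.05 in BALB/cJ mice. The alleles held 26.8, 28, 25.5 and 33.5 (C57BL/6J) and 15, 21, 15.9 and 26.3 (BALB/cJ). The strains were far apart, whereas the allele ranges overlapped, with the C57BL/6J allele higher in each animal. The strain ratio was 4.10 ± 0.43 (adjusted p = 2.57e-08), the allele ratio 0.56 ± 0.25 and the difference 3.54 ± 0.54 (adjusted p = 0.000118). In LPS animals the allele ratio was 0.91 ± 0.19 (adjusted p = 0.00653), in the direction of the strains and under the limit of 1.

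A peak in an intron of Ubxn11, 11550 bp from the start of Sh3bgrl3, a small protein of the thioredoxin fold (chr4:134117103-134117303), held 115, 140.0, 105 and 63.8 in C57BL/6J mice and 19.8, 20.5, 13.4 and 18.1 in BALB/cJ mice. Its alleles held 95.2, 29.1, 42.8 and 83.3 (C57BL/6J) and 72.3, 15.1, 26.4 and 52.6 (BALB/cJ), so that the C57BL/6J allele was higher in each animal and the ranges overlapped. Its strain ratio was 2.55 ± 0.30, the allele ratio 0.64 ± 0.18 and the difference 1.91 ± 0.37 (adjusted p = 0.00159). Between the alleles of LPS animals the ratio was 1.02 ± 0.25 and was called (adjusted p = 0.0143).

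A peak 10204 bp from the start of Tmem229b, a transmembrane protein (chr12:79017381-79017581), was lower in C57BL/6J. It held 67.8, 61, 63.7 and 30.6 in C57BL/6J mice and 210.0, 257, 254 and 187 in BALB/cJ mice, without overlap. The alleles held 30.3, 29.1, 17.3 and 31.6 (C57BL/6J) and 26.4, 27.9, 10.6 and 34.1 (BALB/cJ) and overlapped. A strain ratio of -2.0 ± 0.24 stood beside an allele ratio of 0.18 ± 0.26, with a difference of -2.16 ± 0.36 (adjusted p = 0.000349). In the LPS animals the allele ratio was 0.05 ± 0.30.

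The promoter of Peg12, an imprinted gene expressed from the paternal allele (chr7:62464394-62464594), was open mainly in BALB/cJ mice. C57BL/6J mice held 13.9, 16, 22.1 and 16 and BALB/cJ mice 105, 98.5, 150.0 and 115. On the C57BL/6J allele 10.4, 17.9, 19.4 and 22 variant tags were counted, and on the BALB/cJ allele 13.2, 25.6, 8.46 and 14.6. The strains did not overlap and the alleles did. The difference was -3.0 ± 0.44 (adjusted p = 8.96e-05). Peg12 was not on the list of imprinted genes used below.

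At 2 further peaks the strains differed strongly in BALB/cJ-higher direction, with a smaller allele ratio that was not called in untreated animals. A peak annotated to Ccnh, a cyclin of the CDK-activating kinase (chr13:85223236-85223436), held 0, 1.6, 2.6 and 1.33 in C57BL/6J mice and 62, 77, 68.5 and 39.6 in BALB/cJ mice. Its strain ratio was -5.72 ± 0.50, its allele ratio -0.77 ± 0.28 (adjusted p = 0.14) and their difference -4.96 ± 0.68 (adjusted p = 2.78e-05). In LPS animals the allele ratio was -2.21 ± 0.25 (adjusted p = 0.000267), in the direction of the strains. For a peak near Gltp, a glycolipid transfer protein (chr5:114697026-114697226), the strain, allele and LPS allele ratios were -4.30 ± 0.46, -0.72 ± 0.20 and -2.16 ± 0.37. The BALB/cJ allele was higher in each untreated animal at both, though the ranges overlapped. At both, the allele ratio was thus not called in untreated animals and called in LPS animals. No strain ratio under LPS was taken here, so the class of these peaks under LPS is not known.

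The promoters of Btbd11 and Setd4 need a separate reading. Btbd11 (chr10:85386624-85386824), an ankyrin repeat and BTB domain gene, held 274, 274, 261 and 254 in C57BL/6J mice and 5.27, 1.95, 5.37 and 7.19 in BALB/cJ mice. The alleles held 36.3, 22.4, 41.8 and 23 (C57BL/6J) and 35.3, 21, 43.3 and 20.4 (BALB/cJ), close to equal in each animal. Between strains the ratio was 5.49 ± 0.32, and the difference was 5.43 ± 0.36 (adjusted p = 2.03e-10). Setd4, a methyltransferase gene (chr16:93603832-93604032), had a strain ratio of 1.61 ± 0.21, an allele ratio of -0.01 ± 0.18 and a difference of 1.63 ± 0.31 (adjusted p = 0.00159). At both the raw counts of the alleles differed by at most 3.5 and 4.5 tags in any animal. Both are also listed at 0 for both alleles in all 5 LPS animals. That was so for 64 of 3724 members, 62 of them with neither call and 0 with an allele call, and 6 members had equal raw counts of both alleles in all 4 untreated animals. Whether the variant tags of such windows tell the alleles apart was not tested.

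MHC class II genes present peptides to CD4+ T cells, and strain calls were more frequent among their members than allele calls. Of 22 members nearest to 9 of 11 genes on the class II list, 8 had a strain call higher in C57BL/6J, 1 a call lower and 13 none, so that 40.9% had a strain call against 16.8% of all members. The allele ratio was called at 2 (9.09%, against 9.72% of all members), 1 in each direction. The difference was called at 5 of the 22, against 141 of all 3724 members (3.79%). The median strain ratio was 0.73 and the median allele ratio -0.14, against 0.07 and -0.01 over all members. Positive strain ratios were found at 19 of 22 members, positive allele ratios at 7 and positive differences at 20. In the LPS animals the median allele ratio of 20 such members was -0.13. Of the 22 members, 9 have a window that overlaps another matched one, so their counts share tags. In the same interval of chromosome 17, 7 members nearest to other genes had a median strain ratio of 0.63 and a median allele ratio of 0.42, with 2 strain calls higher in C57BL/6J and 0 allele calls at an adjusted p under 0.05 with a log2 ratio over 1.

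The promoter of H2-Ab1, the class II beta chain whose sequence is given above, held 177, 154, 130.0 and 134 normalised tags in C57BL/6J mice and 80.4, 90.7, 72.5 and 59.6 in BALB/cJ mice. Its C57BL/6J allele held 125, 175, 117 and 155 and the BALB/cJ allele 153, 203, 172 and 162. The strains did not overlap, whereas the allele ranges did, with the BALB/cJ allele higher in each animal. At this promoter the strain ratio was 1.01 ± 0.20 (adjusted p = 0.000765), the allele ratio -0.28 ± 0.12 (adjusted p = 0.206) and the difference 1.29 ± 0.25 (adjusted p = 0.00171). The strain ratio lies just past the limit of 1. Without C57BL/6J replicate 1 or 2 it was 0.88 and 0.98, and without BALB/cJ replicate 3 or 4 it was 0.98 and 0.88, and the strain call was lost each time.

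Further members of the list were chosen after their values were seen, and they were not all alike. The promoter of H2-Aa, the alpha chain (chr17:34287812-34288012), had a strain ratio of 1.02 ± 0.19, an allele ratio of -0.13 ± 0.10 and a called difference of 1.16 (adjusted p = 0.00435). In LPS animals its allele ratio was 0.71 ± 0.16 (adjusted p = 0.0101), in the direction of the strains. The strain call was lost without C57BL/6J replicate 1 or 2 (0.92 and 0.97) or BALB/cJ replicate 3 or 4 (0.94 and 0.85), and the call of the difference without BALB/cJ replicate 4 (0.99).

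The promoter of H2-DMb1, a chain of the peptide exchange factor DM (chr17:34152995-34153195), had 1.63 ± 0.30 between strains and 0.07 ± 0.19 between alleles. Its difference of 1.57 was called (adjusted p = 0.0331), but not without C57BL/6J replicate 1, 2 or 3, BALB/cJ replicate 3 or 4 or CB6F1/J replicate 1, 3 or 4, at 1.21 to 1.64. Cd74 codes for the invariant chain, and its peak, 14374 bp away (chr18:60789375-60789575), had ratios of 2.05 ± 0.31 and 0.41 ± 0.37, and its difference of 1.63 ± 0.47 was not called (adjusted p = 0.0516). It was called, at 1.74 to 1.81, without C57BL/6J replicate 2, BALB/cJ replicate 3 or 4, or CB6F1/J replicate 2.

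At other members of the locus the alleles ran with the strains. A peak 2761 bp from the start of H2-DMb2, a second DM beta chain gene (chr17:34142555-34142755), had a strain ratio of 2.92 ± 0.41 and an allele ratio of 1.17 ± 0.33 that was not called (adjusted p = 0.0748). In LPS animals its allele ratio was 1.52 ± 0.33 and was called (adjusted p = 0.00897). Its difference of 1.75 ± 0.60 was called only without BALB/cJ replicate 1 (2.22) among the sets with 1 animal left out. The peak 3753 bp from the start of H2-Ob, the beta chain of the DM inhibitor DO (chr17:34235052-34235252), had ratios of 1.14 ± 0.28 and 1.48 ± 0.28, both called, and 0.45 ± 0.19 in LPS animals. Its strain call was lost without BALB/cJ replicate 4 (0.99), and its allele call without any 1 of the hybrid animals (1.27 to 1.71).

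The peak 2005 bp from the start of H2-DMb1 (chr17:34151086-34151286) held 1.74, 1.6, 2.6 and 0 in C57BL/6J mice and 30.3, 36.1, 48.3 and 15.8 in BALB/cJ mice. It stands at the annotated transcription end of H2-DMb2. Its alleles held 0, 5.6, 0 and 0 (C57BL/6J) and 25.6, 34.9, 31.7 and 43.8 (BALB/cJ). The BALB/cJ side was higher in both comparisons without overlap. The ratios were -4.27 ± 0.64 and -4.78 ± 0.86, and in LPS animals the allele ratio was -4.14 ± 0.51. The untreated allele call was lost without CB6F1/J replicate 1, 3 or 4, at -4.45, -4.38 and -4.28, and without replicate 2 the ratio was -8.14. Of the window, 29.4% of 30-base words occurred elsewhere in the genome.

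**Figure D4:**
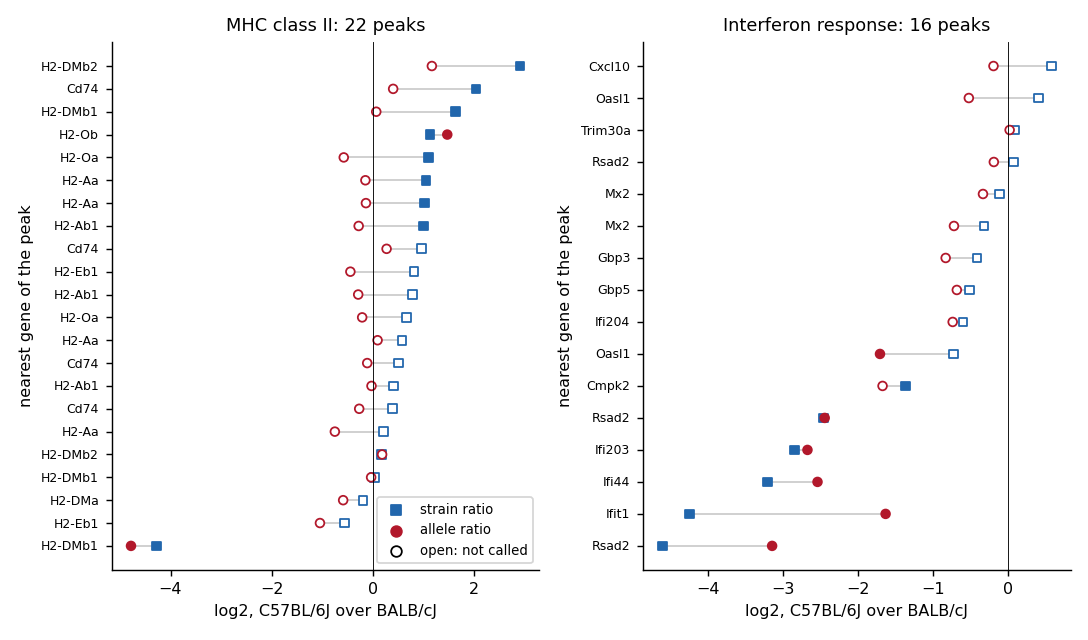
Strain ratio (squares) and allele ratio (circles) of each member nearest to a gene of the MHC class II list (left, 22 peaks) and the interferon response list (right, 16 peaks), in log2 on the x axis. Filled symbols were called. At the class II genes the squares lie mostly right of 0 and the circles around 0, and at the lower interferon members both lie left of 0.

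At interferon response genes the few members with a strain or allele call were all lower in C57BL/6J. Of 16 members nearest to 12 of 36 genes on the list, 6 had a strain call and 6 an allele call, all lower in C57BL/6J, against 8.14% and 4.48% of all members called lower. At 5 both were called, at 1 the strain ratio alone, at 1 the allele ratio alone and at 9 neither. The median strain ratio was -0.55 and the median allele ratio -0.78, against 0.07 and -0.01 over all members. In LPS animals the median allele ratio of the 16 was -0.24, and it was positive at 5 of them. Of the 16 members, 7 have a window that overlaps another matched one, so their counts share tags. A list of 16 members is too small to be set apart from all members by such counts.

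A peak 17542 bp from the start of Rsad2, an antiviral enzyme also called viperin (chr12:26438810-26439010), held 1.74, 4.81, 2.6 and 0 in C57BL/6J mice and 46.1, 63.4, 47 and 53.6 in BALB/cJ mice. In the hybrid the C57BL/6J allele held 0.865, 6.72, 13.3 and 3.83 and the BALB/cJ allele 52.9, 68.7, 45.5 and 35. Neither strains nor alleles overlapped. The ratios were -4.60 ± 0.42 and -3.14 ± 0.53, and -2.93 ± 0.17 between alleles of LPS animals. The untreated allele call was lost without CB6F1/J replicate 1 or 2, at -2.65 and -3.09. A peak annotated to Ifi203, of the family of interferon-inducible DNA sensors (chr1:173961598-173961798), had ratios of -2.84 ± 0.24 and -2.67 ± 0.41. Its allele call was lost without CB6F1/J replicate 1 (-3.06), and 34.5% of its 30-base words occurred elsewhere. In LPS animals its allele ratio was -2.84 ± 0.13.

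The promoter of Ifi44, an interferon-induced gene chosen after its values were seen (chr3:151749903-151750103), had a strain ratio of -3.20 ± 0.38 and an allele ratio of -2.54 ± 0.37, whose call was lost without CB6F1/J replicate 1 (-2.78). The Ifit1 peak lies 32840 bp from the start of that gene, whose product binds viral RNA. There C57BL/6J mice held 0.58, 1.6, 1.3 and 5.32 and BALB/cJ mice 47.5, 29.3, 28.2 and 42. In the hybrid the C57BL/6J allele held 12.1, 17.9, 1.02 and 19.2 and the BALB/cJ allele 37.9, 41.9, 9.51 and 57.4. The alleles overlapped across animals, since both were low in animal 3, and the BALB/cJ allele was higher in each animal. Its strain ratio was -4.24 ± 0.48, the allele ratio -1.63 ± 0.32 and the difference -2.63 ± 0.68 (adjusted p = 0.0237). The allele call was lost without CB6F1/J replicate 1, 2 or 4 (-1.62, -1.82 and -1.67). The call of the difference was lost without C57BL/6J replicate 1, 2 or 3 (-2.09, -2.60 and -2.53) or without CB6F1/J replicate 2 or 4 (-2.44 and -2.61).

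Promoters made up 34.9% of members with an allele call alone, against 31.3% of all members. The largest ratios belonged to promoters that were equally open in both strains. At Mcts2, an imprinted retrogene known to be expressed from the paternal allele (chr2:152686890-152687090), C57BL/6J mice held 149, 205, 120.0 and 137 and BALB/cJ mice 124, 182, 128 and 81.1. The C57BL/6J allele, here the paternal one, held 181, 127, 131 and 177, and the BALB/cJ allele 11.5, 11.6, 18 and 6.81. The strains overlapped and the alleles were far apart. With a strain ratio of 0.27 ± 0.22, the allele ratio was 3.68 ± 0.29 (adjusted p = 0.00216) and the difference -3.42 ± 0.39 (adjusted p = 1.76e-06), and the allele ratio of LPS animals was 3.55 ± 0.22. The other 3 members of the imprinted list of 51 genes, nearest to Inpp5f, Ppp1r9a and Trappc9, had no call.

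Promoters outside the imprinted list had allele calls of like size, on few of their tags. Variant tags were 12.4% of the hybrid's tags at Focad, 17.6% at Gmfb and 8.67% at Pdia6. The median was 18.28% where the allele call alone came with a called difference, and 28.4% over all members. Whether so small a part stands for the whole peak was not tested. At Focad, a gene of a focal adhesion protein (chr4:88094502-88094702), C57BL/6J mice held 374, 340.0, 481 and 336 and BALB/cJ mice 357, 370.0, 389 and 454. On the C57BL/6J allele 90, 99.7, 110.0 and 142 variant tags were counted, and on the BALB/cJ allele 3.53, 0, 4.23 and 9.73. The strains overlapped, and few variant tags were assigned to BALB/cJ. The allele ratio was 4.64 ± 0.42, the difference -4.66 ± 0.35 (adjusted p = 1.42e-09) and the allele ratio of LPS animals 3.65 ± 0.20. Promoters of Gmfb, a glia maturation factor (chr14:46822144-46822344), and Pdia6, a protein disulphide isomerase (chr12:17266409-17266609), had allele ratios of 4.85 ± 0.56 and 3.53 ± 0.43 at strain ratios of 0.22 ± 0.16 and 0.07 ± 0.14. Their allele calls were lost without CB6F1/J replicate 1, at 4.67 and 3.63.

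The promoter of Fpgt, which makes GDP-fucose (chr3:155093297-155093497), held variant tags of both alleles in each animal, though these were 17.9% of its tags. C57BL/6J mice held 427, 424, 417 and 346 and BALB/cJ mice 309, 331, 376 and 340.0, and the alleles 158, 118, 142 and 115 (C57BL/6J) and 38.8, 25.6, 29.6 and 30.2 (BALB/cJ). The strains overlapped and the alleles did not. With a strain ratio of 0.25 ± 0.14, the allele ratio was 2.10 ± 0.15 and the difference -1.84 ± 0.21 (adjusted p = 1.44e-06).

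In the other direction, the promoter of Gtf2i, a general transcription factor (chr5:134314726-134314926), held 101, 91.5, 96.2 and 77.1 in C57BL/6J mice and 111, 64.4, 72.5 and 71.7 in BALB/cJ mice. The BALB/cJ allele held 47.6, 18.6, 49.7 and 50.6, while the C57BL/6J allele had 0 variant tags in 3 animals and 1.0 raw tag in animal 4. With a single tag the fitted ratio of -6.86 ± 0.61 depends on the prior count, and the difference was 7.22 ± 0.65 (adjusted p = 2.93e-08). The SE given does not cover that dependence, and without CB6F1/J replicate 4 the difference was 9.08. In the 5 LPS animals the means were 0 on the C57BL/6J allele and 10.7 on the BALB/cJ allele.

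A peak in the 5′ UTR annotation of Jund, an AP-1 subunit (chr8:70698820-70699020), held 379, 425, 398 and 359 in C57BL/6J mice and 427, 440.0, 380.0 and 340.0 in BALB/cJ mice. Its alleles held 56.3, 28, 38.8 and 68.9 (C57BL/6J) and 140.0, 76.8, 93 and 118 (BALB/cJ). The strains overlapped and the alleles did not. Its strain ratio was -0.02 ± 0.13, the allele ratio -1.18 ± 0.17 and the difference 1.16 ± 0.21 (adjusted p = 0.00107). The allele call was lost without CB6F1/J replicate 1 (-1.12), and the ratio of LPS animals was -0.45 ± 0.14. Variant tags were 11.9% of the tags at this peak.

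Dusp1 codes for a phosphatase of MAP kinases, and the peak 43263 bp from its start (chr17:26465109-26465309) had the allele call alone, with a smaller difference of the same direction between strains. C57BL/6J mice held 119, 112, 173 and 160.0 and BALB/cJ mice 83.1, 63.4, 77.9 and 110.0. The C57BL/6J allele held 219, 174, 185 and 205 and the BALB/cJ allele 36.1, 38.4, 40.2 and 43.8. Neither strains nor alleles overlapped. With 0.73 ± 0.23 the strain ratio stayed under the limit of 1 (adjusted p = 0.0421), the allele ratio was 2.30 ± 0.14 and the difference -1.58 ± 0.29 (adjusted p = 0.00113).

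Kupffer cell identity genes and lipid genes held members of every class. Among 24 members of the identity list (10 of 30 genes), 4 strain calls were higher and 1 lower in C57BL/6J, with 2 allele calls each way and 17 members without a call. That is 20.8% with a strain call and 16.7% with an allele call, against 16.8 and 9.72% of all members. A peak 1094 bp upstream of Cd5l, a scavenger receptor family member that macrophages secrete (chr3:87356687-87356887), held 46.4, 40.1, 46.8 and 54.5 in C57BL/6J mice and 9.23, 9.75, 14.8 and 10.1 in BALB/cJ mice. The alleles held 51.1, 34.7, 50.0 and 64.2 (C57BL/6J) and 23.8, 23.3, 15.9 and 41.9 (BALB/cJ). The C57BL/6J allele was higher in each animal, though the ranges overlapped. The ratios were 2.12 ± 0.32 and 0.97 ± 0.25 (adjusted p = 0.0612), the difference was not called, and the allele ratio of LPS animals was 1.06 ± 0.14 (adjusted p = 0.000566).

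For Marco, a scavenger receptor for bacteria (chr1:120527642-120527842), the ratios were 1.20 ± 0.28 and 1.12 ± 0.27, both called and both close to their limits. The strain call was lost without BALB/cJ replicate 4 (0.88), and the allele call without any 1 of the 4 hybrid animals (1.01 to 1.21). A peak 6374 bp from Id1, an inhibitor of helix-loop-helix factors (chr2:152742525-152742725), had the allele call alone. Its ratios were -0.46 ± 0.28 between strains and -2.02 ± 0.28 between alleles, with -2.15 ± 0.57 in LPS animals. The allele call was lost without CB6F1/J replicate 1 (-1.97), and BALB/cJ mice ranged widely, with 140.0, 176, 38.9 and 118 tags against 88.1, 91.5, 85.8 and 81.1 in C57BL/6J mice. The difference of 1.56 ± 0.46 was not called, but passed without BALB/cJ replicate 2 (1.77) or 3 (1.27) or CB6F1/J replicate 4 (1.86).

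LXR targets and lipid handling genes had 22 members (12 of 30 genes), with 1 strain call higher and 4 lower in C57BL/6J and 2 allele calls each way (22.7 and 18.2%, against 16.8 and 9.72%). An intronic peak of Soat1, which esterifies cholesterol, held 43.5, 54.6, 53.3 and 53.2 in C57BL/6J mice and 134, 165, 148 and 169 in BALB/cJ mice. Its alleles held 42.4, 10.1, 13.3 and 36.4 (C57BL/6J) and 156, 44.2, 57.1 and 89.6 (BALB/cJ). Neither strains nor alleles overlapped, though the level of both alleles varied between animals. The ratios of -1.61 ± 0.22 and -1.79 ± 0.22 differed by 0.18 ± 0.31. The allele call was lost without CB6F1/J replicate 1 (-1.76).

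An intronic peak of Npc1, which exports cholesterol from lysosomes (chr18:12230058-12230258), had ratios of -2.43 ± 0.29 between strains and -2.07 ± 0.26 between alleles, and -0.95 ± 0.16 between alleles of LPS animals. A peak 42681 bp from Lpl, the lipoprotein lipase (chr8:68837774-68837974), held 35.4, 44.9, 44.2 and 34.6 in C57BL/6J mice and 2.64, 0, 0 and 0.369 in BALB/cJ mice. The alleles held 45, 22.4, 20.4 and 28.7 (C57BL/6J) and 9.7, 15.1, 4.23 and 2.92 (BALB/cJ). Neither strains nor alleles overlapped. At this peak the strain ratio was 6.13 ± 0.65, the allele ratio 1.96 ± 0.48 and the difference 4.22 ± 0.79 (adjusted p = 0.00129). The allele call was lost without CB6F1/J replicate 3 (1.91) or 4 (1.62).

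AP-1, ATF, EGR and MAF factor genes, with KLF factors on the same list, had 35 members (19 of 34 genes), of which 3 had both calls and 30 none. That is 11.4% with a strain call and 11.4% with an allele call, against 16.8 and 9.72% of all members. A peak 56048 bp from Klf4, a macrophage transcription factor (chr4:55476327-55476527), was close to absent in C57BL/6J mice (0.58, 0, 1.3 and 0) against 23.7, 39, 38.9 and 42 in BALB/cJ mice. Its C57BL/6J allele held 3.46, 2.24, 0 and 3.83 and its BALB/cJ allele 65.2, 26.8, 62.4 and 69.1. Strains and alleles were apart in all animals. The ratios were -5.93 ± 0.66 and -4.48 ± 0.51, and the allele call was lost without CB6F1/J replicate 1 (-4.61). A peak 23754 bp from Fosl2, an AP-1 subunit (chr5:32112618-32112818), was higher in C57BL/6J with ratios of 1.78 ± 0.27 and 1.42 ± 0.22, and the allele ratio was 1.30 without call when CB6F1/J replicate 1 was left out.

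Among 21 members of complement and phagocytic receptor genes (9 of 34 genes), 2 strain calls were higher and 2 lower, and 1 allele call was higher (19 and 4.76%, against 16.8 and 9.72% of all members). The peak near Msr1, the scavenger receptor A (chr8:39651846-39652046), held 66.1, 54.6, 44.2 and 46.5 in C57BL/6J mice and 116, 151, 149 and 166 in BALB/cJ mice. The alleles held 45.9, 52.7, 33.7 and 22 (C57BL/6J) and 37, 36.1, 53.9 and 45.8 (BALB/cJ). The strains were apart and the alleles overlapped. The ratios were -1.45 ± 0.20 and -0.20 ± 0.32, and 0.01 ± 0.25 between alleles of LPS animals. The difference of -1.25 ± 0.36 was just called (adjusted p = 0.0486). Its call was lost without C57BL/6J replicate 2, 3 or 4, BALB/cJ replicate 2, 3 or 4 or CB6F1/J replicate 1 or 2, at -1.27 to -0.99.

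TLR4 signalling genes, which sense LPS, had 15 members (8 of 22 genes) with 1 strain call and 3 allele calls, all higher in C57BL/6J (6.67 and 20.0%, against 16.8 and 9.72% of all members). The promoter of Lbp, the LPS-binding protein (chr2:158306249-158306449), had ratios of 1.27 ± 0.24 and 1.30 ± 0.23, and its allele call was lost without CB6F1/J replicate 1 (1.32), 2 (1.24) or 4 (1.21). MHC class I genes, which present peptides to CD8+ T cells, had 8 members with 1 strain call and 1 allele call (12.5% each, against 16.8 and 9.72%). The allele call was at an intronic peak of H2-K1, a class I heavy chain (chr17:33999555-33999755), with ratios of 0.39 ± 0.29 and 1.72 ± 0.23. That call was lost without CB6F1/J replicate 1 (1.85), the difference was called without BALB/cJ replicate 4 (-1.64), and 35.5% of its 30-base words occurred elsewhere. For Cxcr4, a chemokine receptor among the study's own examples, a peak 43914 bp from the start (chr1:128548285-128548485) had a strain ratio of 3.12 ± 0.43. Its allele ratio of 2.28 ± 0.66 was not called (adjusted p = 0.0809), and in LPS animals it was 2.85 ± 0.28 (adjusted p = 0.000144).

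Other lists had at most 1 call in each comparison, where 16.8% of all members had a strain call and 9.72% an allele call. The 10 members of LPS-inducible cytokine and chemokine genes (7 of 30 genes) and the 3 of inflammasome genes had 0 calls in either comparison at adjusted p under 0.05 with a log2 ratio over 1. NF-kB components and feedback genes had 1 strain call (10.0%), lower in C57BL/6J, and 0 allele calls among 10 members. The difference was called at 1 of them, against 3.79% of all members. Notch, BMP and TGF-beta genes had 1 strain and 1 allele call among 18 members (5.56% each). Lists of 3 to 18 members, here and above, are too small to be set apart from all members by such counts. Markers of hepatocytes, stellate cells and lymphocytes had no member, and the single members of endothelial, monocyte and neutrophil markers had no call.

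The 5 LPS animals gave a second measurement of the allele ratio in mice that did not choose the classes. Between the alleles of these animals 1258 of 6727 peaks were called (18.7%). Of the 279 members with both calls in untreated mice, 251 were tested, and 249 had the same sign and 197 a call in the same direction. Of 282 tested members with a strain call alone, 257 (91.1%) had the sign of the strain ratio, and 89 were called in that direction. All 67 tested members with an allele call alone kept their sign, and 34 were called. In none of these classes was a member called in the opposite direction. Over all 3152 tested members, 2260 (71.7%) kept the sign of the untreated allele ratio. Among those with neither call it was 1688 of 2552 (66.1%).

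Sizes followed the same order. Along the direction of the call, the median allele ratio was 1.99 in LPS and 2.24 in untreated animals at members with both calls. At members with a strain call alone it was 0.75 and 0.84, against a median strain ratio of 1.43. Where in addition the difference had been called, 30 of 37 had the sign of the strain ratio, at a median of 0.63 against 2.47 between strains. Allele ratios of untreated and LPS animals correlated with r = 0.851 (n = 3152 peaks, which share windows and variants). Treatment and library date go together in the headers, so neither can be told apart from the other in a difference between these animals.

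**Figure D5:**
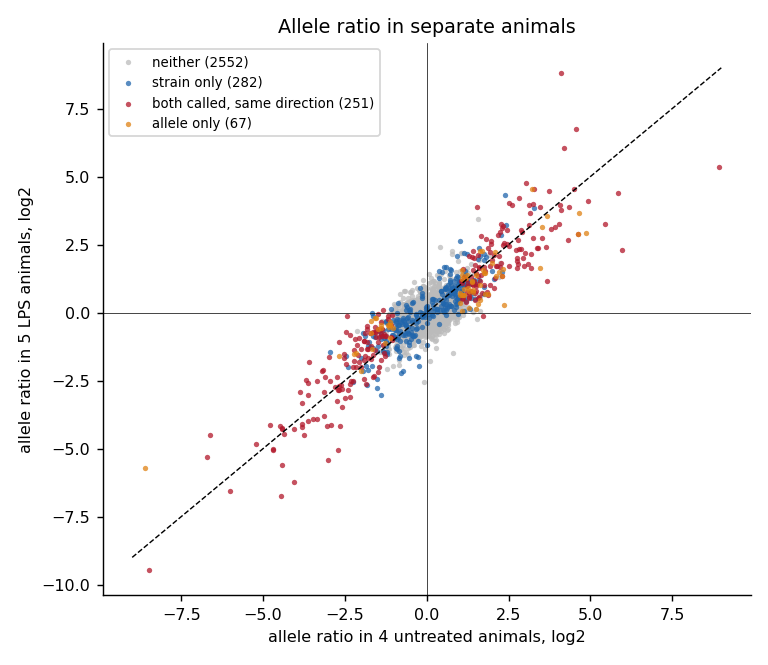
Allele ratio (log2, C57BL/6J over BALB/cJ allele) in the 4 untreated animals on the x axis and in the 5 LPS animals on the y axis, for the 3152 members tested in both, coloured by the class of calls in untreated mice. The dashed line marks equal ratios. Members with both calls or with the allele call alone lie along the line, and members with the strain call alone lie closer to 0.

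The classes differed in where their members lie relative to genes. Promoters made up 31.3% of all members, 5.38% of members with both calls, 11.9% with a strain call alone, 34.9% with an allele call alone and 35.8% with neither. Where the allele call alone came with a called difference, 16 of 32 were promoters (50.0%). Seen from the annotation, the strain ratio was called at 56 of 1166 promoters (4.8%), against 267 of 1219 intronic (21.9%) and 266 of 1129 intergenic members (23.6%). The allele ratio was called at 3.77, 11.9 and 13.5% of these. Accordingly, the median distance to the nearest start was 18999 bp with both calls, 13464 bp with a strain call alone, 7410 bp with an allele call alone and 3236 bp with neither.

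Base composition and motifs went with that. The median GC content was 47.8% with both calls, 48.8% with a strain call alone, 51.2% with an allele call alone and 53.7% with neither. AP-1 letters stood in 18.3% of members with both calls, in 14.5% with a strain call alone and in 12.3% of all. For the MAF half-site the shares were 10.4, 8.99 and 6.44%, and for the nuclear receptor half-site AGGTCA, which LXR shares with other receptors, 22.6, 16.8 and 14.7%. The GC box GGGCGGGG of SP and KLF factors showed the opposite order with 2.87, 5.51 and 12.4%. Windows in which over 20% of 30-base words occur elsewhere in the genome made up 10.4% of members with both calls, 8.7% with a strain call alone and 4.94% of all members. The part of repeated words in the ratios was not tested.

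The level of the hybrid was set against its parents as a description, since libraries of different preparations stand on each side. It was taken from tags that map perfectly to the C57BL/6J genome plus the variant tags of the BALB/cJ allele. The column of perfectly mapped tags exceeds that of all tags at 37.9 to 69.6% of peaks over the 4 animals, so what separates those columns is not settled. At members with both calls it lay between the parental means at 137 of 141 peaks higher and 136 of 138 lower in C57BL/6J. With a strain call alone this held at 166 of 180 higher and 161 of 165 lower, and over all members, where parents differ little, at 50.5%. On the log2 scale the median hybrid level lay 0.90 and 0.78 above the mean of both parents in members with both calls, and 0.34 and 0.29 above it in those with a strain call alone. Set against the log2 of the mean parental level, these medians were 0.06, 0.01, 0.08 and 0.01.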

How the data were processed

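ATAC-seq was performed on sorted Kupffer cells. Per the methods and the submitters' processing notes, reads cut to 30 bp were mapped by the authors with Bowtie2, either to mm10 or to a BALB/cJ genome built from it, which leaves out larger structural variants, shifted positions to mm10 and counted tags with HOMER in 1000-bp windows around merged peaks. The deposited inbred table holds whole counts for LPS libraries, whereas its control columns are expected counts that move by 0.5 tags. The deposited hybrid table counts, by MMARGE and in the same steps, tags that match a parental genome perfectly over a variant. Neither was normalised. In the headers the 8 inbred control libraries share a date, and C57BL/6J control columns hold 0 mitochondrial tags. A further 20 value columns, other mappings of the LPS animals, were not read. Columns of the authors' own comparisons were not used.

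Values with 0.5 tags were rounded up. Tests used edgeR 4.0.16 (TMM, quasi-likelihood) in R 4.3.3, with Benjamini-Hochberg adjustment over all peaks tested. The strain ratio was a contrast in a model of all 17 inbred libraries, A/J and LPS libraries included. The allele ratio had a term per animal. The difference was fitted over 8 inbred libraries and 8 allele columns with a term per hybrid animal and TMM within each table. Normalised counts are counts over the effective library size relative to its geometric mean. Log2 ratios are given ± SE, taken as the size of the ratio over the square root of the F statistic of its test. Where counts are near 0, this SE does not cover how far the ratio depends on the prior count or on a single library. Intervals of replicates cover n = 4 animals per group. DESeq2 1.42.0, other scalings, minimum counts, matching and leaving out each animal were alternatives. Procedures were tested on simulated data.

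Members, gene lists, motifs and tests were chosen with earlier results of these data known, so no list supports a pattern independently. Named peaks lie within 100 kb of a start, 1 per gene, without predicted or ribosomal protein genes. They are those of smallest p in each class and direction, the called peaks of smallest p in each gene list, and a few examples of the study, of which the text uses a part. The CCAAT letters were added after the sequences were seen.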

Additional observations from a re-analysis of the deposited data

Results flagged for a closer look

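Among 182 groups of 4 values, 14 had a lowest or highest value far from the other 3, while chance gives about 1 in 20. Among them was depth, with 7.41 M autosomal tags in C57BL/6J replicate 1 and 46.4 M in BALB/cJ replicate 4. Among inbred libraries the values set apart were 27.9 normalised tags at the Ddhd1 peak, 346 at Fpgt and 43.5 at Soat1 in C57BL/6J mice. In BALB/cJ mice they were 100 at Mxra7, 216 at Pdia6, 14.8 at Cd5l, 2.64 at Lpl and 23.7 at Klf4. Among alleles they were 0.958 at Gtf2i and 5.6 at H2-DMb1 on the C57BL/6J allele, and 18.6 at Gtf2i and 26.8 at Klf4 on the BALB/cJ allele.

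At 24 of 45 peaks used in the text the strain and the allele ratio differed by the test of the difference. Many of these peaks were chosen because that difference was called, so the count follows from the choice. Over all members it was called at 141 of 3724 (3.79%). The strain ratio was higher by 4.42 at Gcnt1, 5.43 at Btbd11, 1.63 at Setd4, 3.54 at Mtus1, 1.91 at Sh3bgrl3, 7.22 at Gtf2i, 1.16 at Jund, 1.29 at H2-Ab1, 1.16 at the H2-Aa promoter, 1.57 at the H2-DMb1 promoter and 4.22 at Lpl. The difference was negative at the others, with -3.73 at Enpp5, -2.16 at Tmem229b, -3.0 at Peg12, -4.96 at Ccnh, -3.59 at Gltp, -2.63 at Ifit1 and -1.25 at Msr1, where BALB/cJ was higher. It was -4.66 at Focad, -4.64 at Gmfb, -3.43 at Pdia6, -1.84 at Fpgt, -1.58 at Dusp1 and -3.42 at Mcts2, where the C57BL/6J allele was higher.

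On the X chromosome, which no comparison uses, 7.14, 7.09, 9.11 and 8.4% of variant tags were assigned to C57BL/6J in CB6F1/J replicates 1 to 4, whose X is from BALB/cJ.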

How the results depend on the processing

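No ratio or difference called at a named peak changed direction. Of 4611 values at 63 named peaks under other settings, 4440 kept their side of the threshold, 145 lost a call and 26 gained one. Alternatives kept the counts of calls within 1.5 times except for these. Without a minimum count, over 15897 members, there were 3206 strain calls, 0 allele calls, 0 members with both calls or the allele call alone, 3206 with the strain call alone and 283 differences, 164 of them at strain calls. Then r was 0.572, rho 0.483, the median of allele over strain ratio 0.589, and the same-sign shares 88.7% (strain calls, untreated alleles) and 93.8% (strain call alone, LPS alleles). A minimum of 32 gave 222 strain calls, 171 allele calls, 63 differences (39 at strain calls) and classes of 123, 99 and 48, with r 0.782, rho 0.566 and same-sign shares of 96.4% and 88.3%. Matching at 90% left 295 strain calls, 170 allele calls, 52 differences (36 at strain calls) and classes of 142, 153 and 28, with r 0.807 and rho 0.612. Both settings keep fewer members. Windows without overlap gave 52 allele calls alone, rho 0.644 and an LPS share of 92.9%. DESeq2's Wald test gave 128 allele calls alone, a median of 0.65 and an LPS share of 88.4%. It also gave 347 members with both calls and 284 with the strain call alone. The order of these 2 classes was thus the reverse of the main fit (279 and 345), as it was at the minimum of 32 (123 and 99). Without a minimum ratio there were 941 strain calls, 611 of them alone, a median of 0.614 and shares of 90.2% and 81.5%. At an adjusted p under 0.01 there were 125 allele calls, 78 differences (49 at strain calls), 99 members with both calls, 26 with the allele call alone and shares of 96.2% and 94.6%. Counts of 0.5 tags rounded down gave a median of 0.654 and a share of 96.5%. Where a test of the difference decides, 530 strain calls had no called difference and 94 had one. The cause was not tested for the other changes.

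Leaving out 1 animal at a time gave 571 to 681 strain calls, 72 to 364 allele calls, 106 to 175 differences (66 to 108 at strain calls), 62 to 282 members with both calls, 301 to 522 with the strain call alone and 10 to 89 with the allele call alone. Over these, r ran from 0.769 to 0.794, rho from 0.563 to 0.599, the median from 0.608 to 0.644, and the shares from 92.5 to 96.4% and from 89.1 to 93.9%.

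Same-numbered C57BL/6J and BALB/cJ libraries were not taken as pairs, since that needed a correlation of deviations over 0.1 in every pair and replicate 1 had 0.0384. The others had 0.319, 0.111 and 0.247, and 2 of 4 C57BL/6J libraries correlated best with their own number. With a replicate block in the strain fit 642 members had a strain call, and with it in the difference fit 120 differences were called. Without the animal block in the allele fit 393 allele calls and 99 differences were found, and the median was 0.616. Depth limits the allele ratio, with 262902.5 to 410569.5 variant tags per column.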
